A study of Mus musculus with 24 samples.

Results

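The genes described here are 32 genes of the p53 response: Trp53 itself, which encodes p53, and 31 genes known as its targets or as regulators within its feedback loop. They were taken by name from a given list, through the gene names on the array and older aliases, with the brightest probe standing for each gene. All 32 were found on the array (Tigar under the name 9630033F20Rik, Pidd1 under Lrdd), 26 of them were bright enough to be tested, and 14991 genes were tested in all. The samples are total RNA from DA1-3B Bcr-ABL+ cells, a Bcr-Abl-positive leukaemia line from a C3H eOuJ mouse, transfected with plasmids that encode p65/RelA, the transactivating subunit of NF-κB, or parts of it. There are 6 groups of 4 one-colour arrays each. VOID received an empty plasmid, WT the whole wild-type protein, and D361E a mutant that the series text describes as non-cleavable. The groups p1-361 and p363-549 received the N-terminal and the C-terminal piece, and p1-361+p363-549 received the pair (the treatment text has the C-terminal piece begin 1 residue sooner). All 6 groups share the same line and its Bcr-Abl, the sources used here give neither the time after transfection nor the share of cells that took up plasmid, and whether the 4 RNAs of a group are separate cultures is not stated, so p-values measure the spread between arrays, which may be technical.

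p53 is a transcription factor that is kept low by Mdm2, the ubiquitin ligase that marks it for destruction and that is itself a p53 target. When DNA damage or oncogene signals release p53, it binds paired half-sites near its target genes and raises a programme of cell cycle arrest, DNA repair, cell death and metabolic adjustment. In blood cells this programme limits the growth of cells with damaged genomes, and its loss recurs in leukaemia. p53 and p65 draw on shared coactivators of the CBP family, so the transcriptional output of each can depend on the other.

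1 of the 26 tested genes was called in any comparison. Btg2, an antiproliferative gene that p53 induces and that is also an early response gene, fell 3.88-fold with both fragments together against the empty plasmid. This was 3.85% of the members in that comparison, beside 4.46% of all genes. Btg2 was not called by limma's F test over the 6 groups (adjusted p = 0.0573). Its call was lost in a limma fit of only the arrays compared (adjusted p = 0.0508). In bulk RNA, fewer cells that express a gene and less of its RNA per cell cannot be told apart. Cdkn1a and Mdm2, the targets most often used to read p53 activity, were not called in any of the 9 comparisons (5 constructs against VOID, 4 against WT). When the 3 arrays that resembled other groups were left out, 6 genes were called lower with both fragments against VOID (Btg2, Zmat3, Plk3, Xpc, Ddb2 and Cdkn1a), beside 9.73% of all genes. Those arrays were left out for their values, which narrows the spread by itself.

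Levels are given as the log2 of the scanner's processed signal minus the array's 75th percentile, so 0 is that percentile, a difference of 1 is 2-fold, and the levels of different genes cannot be set against each other. A gene was called where limma's adjusted p, over all genes tested, was under 0.05. The 75th percentile lay between 635.8 and 1213.6 units of processed signal, and 49.4 to 55.5% of spots were well above background. Rela, which the constructs encode whole or in part, was 0.36 to 0.49 above VOID in the 5 construct groups by its brightest probe. It was called in p1-361, p363-549 and both fragments. The pieces p1-361 and p363-549 share no residues, so a probe in the coding part cannot match both in full. Whether these values reflect plasmid RNA was not tested. All 6 general blood cell markers were well above background on every array and none of the 4 epithelial markers on any. Of the 6 mast cell and basophil markers, Kit and Ms4a2 were above background on no array. Hdc was above it on 24, Cpa3 on 21, Fcer1a on 15 and Mcpt8 on 12. Of the 5 T cell markers on the array, 3 (Cd3e, Cd3d and Lck) were above it on all 24, Cd3g on 12 and Cd2 on none. Some lineage markers were called: Fcer1a of mast cells in 6 of the 9 comparisons, and Hbb-bs of erythroid cells and Lyz2 of macrophages in 4 each. Mcpt8, Cpa3, Klf1 and Hba-a1 were called in 2 each and Cd3d in 1. Hdc, Gata1, Epor, Csf1r, Adgre1, Itgam and Cd68 were called in none. By comparison, 0.08 to 4.46% of all genes tested were called. Hbb-bs was above background on 20 arrays and Lyz2 on 17. A marker was tested if all arrays of some group were well above background. Calls of Fcer1a, Mcpt8, Cpa3, Hbb-bs and Lyz2 can therefore set such a group against arrays near background. The part of these markers in the results below was not tested. Over the 200 genes used to compare arrays with groups, 21 arrays were most like the other arrays of their own group. The other 3 were all replicate 4 of a fragment group: p363-549 replicate 4 correlated at 0.97 with the both-fragments group and at -0.55 with its own, p1-361 replicate 4 at 0.78 with p363-549 and at 0.14 with its own, and both-fragments replicate 4 at 0.71 with p1-361 and at -0.09 with its own. Labels were kept as given, these arrays are shown apart below, and the calls with both fragments are given with and without them.

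The 26 tested members were well above background on all 24 arrays. The 6 that were not tested were Perp, an adhesion gene of p53-dependent death, Plk2, a stress kinase, Dram1, an autophagy gene, and Eda2r, a death receptor, all above background on 0 of 24 arrays, with Rprm, an arrest gene, above it on 2 and Rrm2b, a subunit that supplies nucleotides for repair, on 8. They are not well above background rather than absent, and no difference is given for them. Across groups the within-group SD of the tested members had a median of 0.33, beside 0.32 for all genes tested. It ran from 0.17 for Tnfrsf10b to 0.65 for Btg2, whose spread includes replicate 4 of p363-549 and of both fragments.

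Promoter sequences are shown for the called gene and for members that carry p53 or NF-κB motifs, since both factors bear on the design. RefSeq windows of 250 bases before to 50 after a transcript start (GRCm38.p6) were matched by symbol for 25 of the 32 members, in 31 windows, and Xpc, Tnfrsf10b, Zmat3, Ddb2, Trp53inp1, Rrm2b and Perp were not matched. The consensus p53 half-site and the consensus κB site were searched on both strands. Capitals mark the motifs, and all sequences run 5′ to 3′ on the strand of the gene. The Cdkn1a stretch (chr17:29090879-29090978, plus strand) lies before an upstream start of the gene and has half-sites that begin 73 and 51 bases before it.
Cdkn1a: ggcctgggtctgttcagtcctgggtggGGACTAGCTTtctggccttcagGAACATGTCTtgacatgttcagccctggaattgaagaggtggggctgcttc
The Trp53 stretch (chr11:69580259-69580368, plus strand) has a half-site 75 bases and a κB site 5 bases before the start.
Trp53: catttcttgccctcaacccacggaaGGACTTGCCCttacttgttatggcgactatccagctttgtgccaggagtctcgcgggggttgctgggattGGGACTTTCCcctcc
The Gtse1 stretch (chr15:85859557-85859656, plus strand) has κB sites that begin 136 and 123 bases before the start.
Gtse1: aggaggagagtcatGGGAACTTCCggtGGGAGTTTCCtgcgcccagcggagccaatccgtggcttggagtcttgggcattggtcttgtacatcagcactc
The Btg2 stretch (chr1:134079156-134079305, minus strand) is shown as the promoter of the called gene, and no match to either motif lay in its whole window.
Btg2: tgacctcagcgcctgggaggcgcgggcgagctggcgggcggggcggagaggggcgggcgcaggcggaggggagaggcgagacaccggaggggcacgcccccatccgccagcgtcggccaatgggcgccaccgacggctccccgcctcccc
A p53 half-site was in 13 of the 31 member windows, from 12 genes (Trp53, Cdkn1a, Mdm2, Ccng1, Sesn1, Gadd45a, Aen, Ei24, Polk, Gtse1, Pml and Ppm1d), and in 8.36% of all 32851 windows. A κB match was in 2 member windows, those of Trp53 and Gtse1 above, and in 8.46% of all windows. A match is a description of letters and not a binding site, and a window without one says nothing of sites elsewhere in the gene.

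Trp53 and the genes that feed back on it come first: Mdm2, its relative Mdm4, the phosphatase Ppm1d and cyclin G1 (Ccng1), which acts with a phosphatase on Mdm2. None of the 5 was called in any comparison. Trp53 was at -0.95, -0.26, -1.81 and -0.95 in VOID, at -0.99, -1.29, -1.98 and -0.65 in WT, and at -1.35, -1.11, -2.01 and -0.69 in D361E, in the order of the replicates. It was at -1.02, -0.92, -1.83 and -0.78 in p1-361, at -1.23, -0.34, -1.83 and -0.22 in p363-549, and at 0.00, -0.09, -1.46 and -0.14 with both fragments. In every group the third replicate was the lowest, and the groups overlapped. With both fragments Trp53 was 0.57 ± 0.41 (SE, n = 4 arrays a group) from VOID, a difference that was not called (adjusted p = 0.464), and 0.81 ± 0.41 from WT (adjusted p = 0.422).

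Mdm2 was at 4.18, 3.61, 4.33 and 4.15 in VOID, at 3.75, 3.62, 4.56 and 4.06 in WT, and at 4.05, 3.93, 4.27 and 4.15 in D361E. It was at 3.93, 3.80, 4.24 and 4.04 in p1-361, at 4.05, 3.76, 4.67 and 3.80 in p363-549, and at 3.81, 3.54, 3.78 and 4.18 with both fragments. All 6 groups overlapped, and the 6 group means lay within 0.27 of each other. With both fragments Mdm2 was -0.24 ± 0.22 from VOID (adjusted p = 0.563, 95% interval of the difference -0.69 to 0.21). The interval holds no difference as well as a fall of up to 0.69.

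The genes of cell cycle and growth arrest held the one call. Of these 9 members 7 were tested, and with both fragments against VOID 6 of the 7 lay below 0, with a median difference of -0.52. Cdkn1a encodes p21, the inhibitor of cyclin-dependent kinases through which p53 stops the cycle. It was at 3.24, 3.66, 3.86 and 3.65 in VOID, at 3.23, 3.27, 3.77 and 3.57 in WT, and at 3.45, 3.35, 3.58 and 3.45 in D361E. It was at 3.38, 3.63, 3.79 and 3.35 in p1-361, at 3.45, 3.39, 4.16 and 3.18 in p363-549, and at 2.80, 2.47, 3.26 and 3.73 with both fragments. The first 2 both-fragments arrays were below every other array, the third was within the range of the other groups, and replicate 4, which resembled p1-361, was among the higher values. The difference from VOID was -0.54 ± 0.23 (adjusted p = 0.212) and was not called. The other 2 probes of Cdkn1a were at -0.67 and -0.62 in the same comparison. In WT, D361E, p1-361 and p363-549 the probe used was at -0.14, -0.15, -0.07 and -0.06 from VOID. The other probes did not all follow it there: one was at -0.23, 0.09, 0.07 and -0.03, and the other at -0.37, 0.30, 0.16 and -0.57.

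Btg2 encodes a factor that recruits deadenylases to mRNA and slows entry into S phase. Its probe lies at chr1:135972094-135972153 on the minus strand in mm9, the build of the array design. Btg2 was at 0.69, 1.22, 1.36 and 1.52 in VOID, at 0.13, 0.40, 0.88 and 1.05 in WT, and at 1.08, 1.21, 1.63 and 1.17 in D361E. It was at 0.39, 0.17, 0.55 and 1.19 in p1-361, at 0.79, 1.01, 1.57 and -0.87 in p363-549, and at -1.05, -1.42, -1.17 and 0.62 with both fragments. The first 3 both-fragments arrays were below all others, the one p363-549 array near them is the one that resembled both fragments, and the both-fragments array that stood near the other groups is the one that resembled p1-361. With both fragments against VOID, Btg2 fell by 1.95 ± 0.43 on the log2 scale (3.88-fold, adjusted p = 0.0099, 95% interval -2.85 to -1.06), and the arrays of the groups did not overlap. It ranked 270th by p among the 14991 genes tested. Within the 2 slides that hold both groups the difference was -2.69 and -2.27, each between single arrays, and neither pair included both-fragments replicate 4. Within the sets of consecutive samples described below it was -1.74, -2.64, -2.53 and -0.91, in the order of the replicates. With the slide as a block in limma it was -1.88 (adjusted p = 0.0278). The call was lost when the fit held only the 8 arrays compared (adjusted p = 0.0508) and without both-fragments replicate 2 (-1.73, adjusted p = 0.0547). Against WT the difference was -1.38 ± 0.43 and was not called with all arrays (adjusted p = 0.164). In WT, D361E, p1-361 and p363-549 Btg2 was at -0.58, 0.07, -0.62 and -0.57 from VOID, none called. Without the 3 arrays p1-361 was at -0.83 ± 0.24 (adjusted p = 0.0839) and p363-549 at -0.08 ± 0.24 (adjusted p = 0.943), so the p363-549 value rested on its replicate 4.

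**Figure D1:**
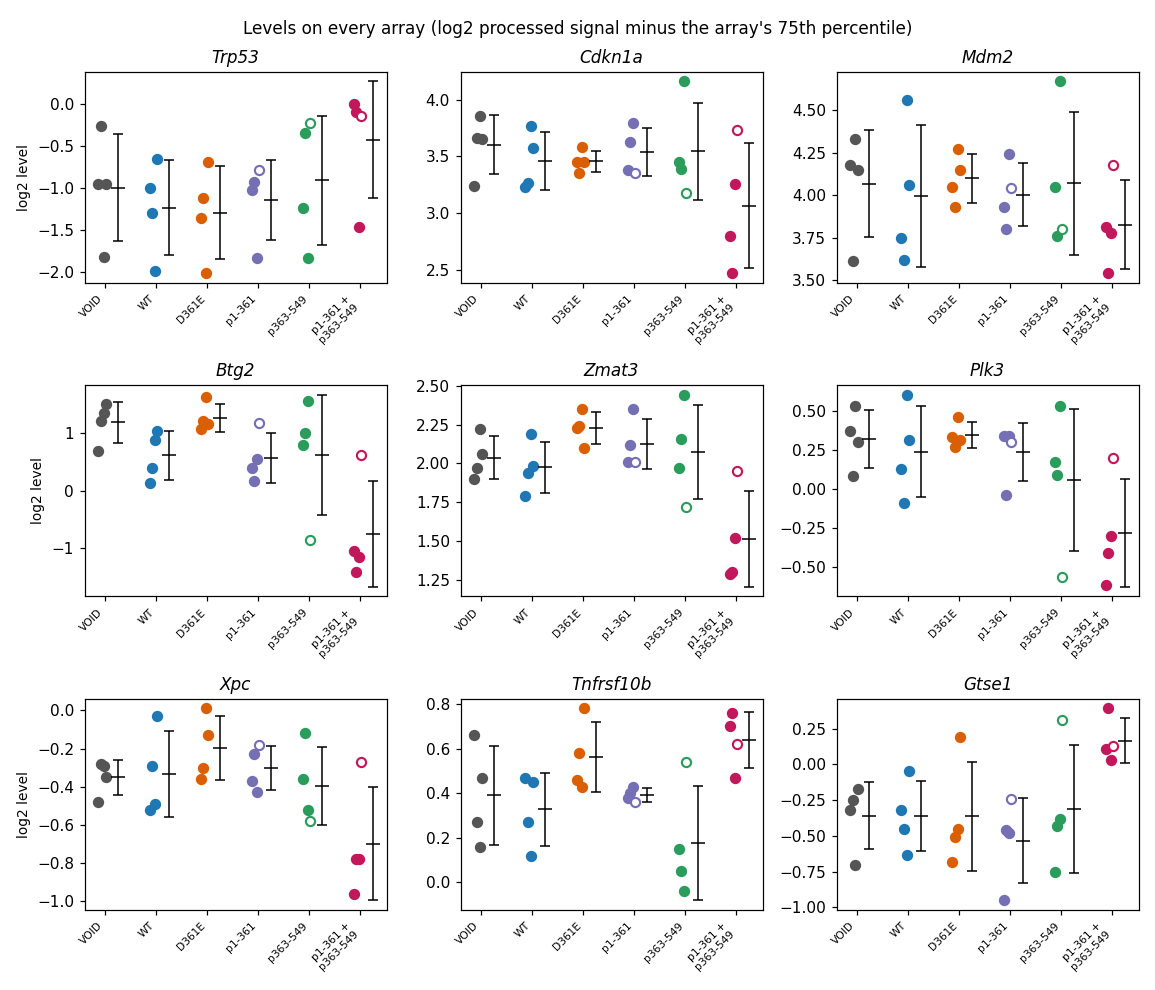
Log2 level (processed signal minus the array's 75th percentile) of 9 p53 list genes on every array, by transfection group. Each point is 1 array, open points are replicate 4 of the 3 fragment groups, and bars are the mean ± SD of 4 arrays. For Btg2 the first 3 both-fragments arrays, from -1.42 to -1.05, lie below all others, while the open points of p363-549 and of both fragments lie at -0.87 and 0.62.

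Zmat3, an RNA-binding zinc finger gene that p53 induces, was at 1.90, 1.97, 2.22 and 2.06 in VOID, at 1.79, 1.94, 2.19 and 1.98 in WT, and at 2.23, 2.24, 2.35 and 2.10 in D361E. It was at 2.01, 2.12, 2.35 and 2.01 in p1-361, at 1.97, 2.16, 2.44 and 1.72 in p363-549, and at 1.29, 1.30, 1.52 and 1.95 with both fragments. As for Btg2, the first 3 both-fragments arrays were the lowest of all, and replicate 4 lay inside the VOID range. The difference from VOID was -0.52 ± 0.16 (adjusted p = 0.0649), and that from WT was -0.46 ± 0.16 (adjusted p = 0.215), neither called.

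Plk3, a stress-responsive kinase of the polo family, was at 0.37, 0.08, 0.53 and 0.30 in VOID, at 0.13, -0.09, 0.60 and 0.31 in WT, and at 0.33, 0.27, 0.46 and 0.31 in D361E. It was at 0.34, -0.04, 0.34 and 0.30 in p1-361, at 0.17, 0.09, 0.53 and -0.56 in p363-549, and at -0.61, -0.41, -0.30 and 0.20 with both fragments. The 4 lowest arrays of the 24 were the first 3 of both fragments and replicate 4 of p363-549. The difference from VOID was -0.60 ± 0.20 (adjusted p = 0.0995) and was not called.

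Gtse1, a microtubule-associated gene that is most active in G2 and that moves p53 out of the nucleus, was the member of this group above 0. It was at -0.32, -0.25, -0.70 and -0.17 in VOID, at -0.32, -0.45, -0.63 and -0.05 in WT, and at -0.68, -0.51, -0.45 and 0.19 in D361E. It was at -0.95, -0.46, -0.48 and -0.24 in p1-361, at -0.75, -0.43, -0.38 and 0.31 in p363-549, and at 0.11, 0.39, 0.03 and 0.13 with both fragments. The both-fragments arrays did not overlap those of VOID or WT, which held for 10.1% and 7.49% of all genes tested. The difference was 0.53 ± 0.22 from VOID (adjusted p = 0.192) and 0.52 ± 0.22 from WT (adjusted p = 0.319), neither called.

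The other tested members of this group were Gadd45a, a damage-induced growth arrest gene, and Sfn, which encodes 14-3-3σ and holds cells in G2. Gadd45a had the highest difference of the group in D361E against VOID (0.89 ± 0.40, adjusted p = 0.702) and the lowest but Btg2 of all members with both fragments against WT (-0.82 ± 0.40, adjusted p = 0.397). Neither passed the test, and its within-group SD was 0.60.

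Of the repair genes, Xpc and Ddb2, which find bulky lesions for nucleotide excision repair, and Polk, a polymerase that copies past them, were tested. Xpc was at -0.48, -0.28, -0.29 and -0.35 in VOID, at -0.52, -0.29, -0.49 and -0.03 in WT, and at -0.36, -0.30, 0.01 and -0.13 in D361E. It was at -0.37, -0.23, -0.43 and -0.18 in p1-361, at -0.36, -0.12, -0.52 and -0.58 in p363-549, and at -0.96, -0.78, -0.78 and -0.27 with both fragments. The first 3 both-fragments arrays were again below all others and replicate 4 above all VOID arrays. The difference from VOID was -0.34 ± 0.15 (adjusted p = 0.218) and was not called. With both fragments the 3 repair genes lay between -0.34 and -0.16 of VOID, all below 0 and none called.

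The death genes cover receptors and effectors: Fas and Tnfrsf10b are receptors of the extrinsic pathway, Pidd1 is a scaffold for caspase-2, Aen is a nuclease, Ei24 and Trp53inp1 act in autophagy and death, Pml organises nuclear bodies, and Phlda3 restrains Akt. Of these 10 members 8 were tested and none was called. Tnfrsf10b was at 0.66, 0.27, 0.16 and 0.47 in VOID, at 0.47, 0.27, 0.12 and 0.45 in WT, and at 0.46, 0.58, 0.43 and 0.78 in D361E. It was at 0.38, 0.40, 0.43 and 0.36 in p1-361, at 0.15, 0.05, -0.04 and 0.54 in p363-549, and at 0.70, 0.76, 0.47 and 0.62 with both fragments. The p363-549 group held the 2 lowest arrays, and its replicate 4 stood at 0.54, among the both-fragments values. The both-fragments group was 0.24 ± 0.14 from VOID (adjusted p = 0.348) and 0.31 ± 0.14 from WT (adjusted p = 0.361).

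Fas had the highest difference of the 26 members in 4 of the 5 comparisons against VOID: 0.94 in WT (adjusted p = 0.802), 0.95 in D361E (adjusted p = 0.69), 0.53 in p363-549 (0.28 without the 3 arrays) and 0.87 with both fragments (adjusted p = 0.273). These comparisons share the VOID arrays, where Fas was at -0.01, -0.40, 1.22 and 0.21. The third VOID array lay above most arrays of the other groups, the groups overlapped in all 5 comparisons, and none was called. In D361E all 8 death genes lay above 0 against VOID, between 0.05 and 0.95.

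The genes of metabolism that were tested are Sesn1 and Ddit4, which both restrain mTORC1, and Tigar, which lowers glycolytic flux. Sesn1 had the highest difference of the members in p1-361 against VOID, at 0.59 ± 0.19 (adjusted p = 0.232). Ddit4 had the lowest in D361E against WT (-0.57 ± 0.26), where the arrays did not overlap but the adjusted p was 1. With both fragments against WT it was at -0.77 ± 0.26 (adjusted p = 0.207), again without overlap and not called. Tigar was highest but for Btg2 in D361E against WT, at 0.53 ± 0.25 (adjusted p = 1).

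Counted over all 26, 0 members were called in any group by the F test over the 6 groups, against 2.84% of all genes, and 3 members had an unadjusted p under 0.05 there, with Btg2 at an adjusted p of 0.0573. Against VOID, 0 of 26 were called in WT (0.487% of all genes), in D361E (0.66%), in p1-361 (0.72%) and in p363-549 (0.567%), where 1, 2, 1 and 0 members had an unadjusted p under 0.05. With both fragments 1 of 26 was called (Btg2), or 3.85%, beside 4.46% of all genes in either direction and 2.5% lower, and 6 members had an unadjusted p under 0.05, or 23.1% beside 18.6% of all genes. The share of members called was therefore near the background in each comparison. Against WT, 0 of 26 were called in D361E (0.08% of all genes), p1-361 (0.127%), p363-549 (0.147%) and both fragments (1.03%), with 2, 0, 0 and 7 members at an unadjusted p under 0.05. In the last of these the 7 members were 26.9%, beside 12.6% of all genes.

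The median difference of the 26 members from VOID was -0.05 in WT, 0.11 in D361E, -0.04 in p1-361, 0.01 in p363-549 and -0.18 with both fragments. Over all genes tested it was -0.04, -0.02, -0.01, 0.03 and -0.01 in the same order. Against VOID, 8 of the 26 lay above 0 in WT, 19 in D361E, 11 in p1-361, 14 in p363-549 and 10 with both fragments. All of these share the VOID arrays. The arrays of the compared groups were apart for 0 of 26 members in WT, D361E, p1-361 and p363-549 against VOID, as for 4.78%, 4.78%, 4.76% and 3.3% of all genes, and for 2 of 26 (Btg2 and Gtse1) with both fragments, where 10.1% of all genes were. Against WT they were apart for 2 of 26 in D361E (Btg2 and Ddit4, beside 3.62%), for 0 in p1-361 and p363-549 (2.8% and 3.76%) and for 2 with both fragments (Gtse1 and Ddit4, beside 7.49%).

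**Figure D2:**
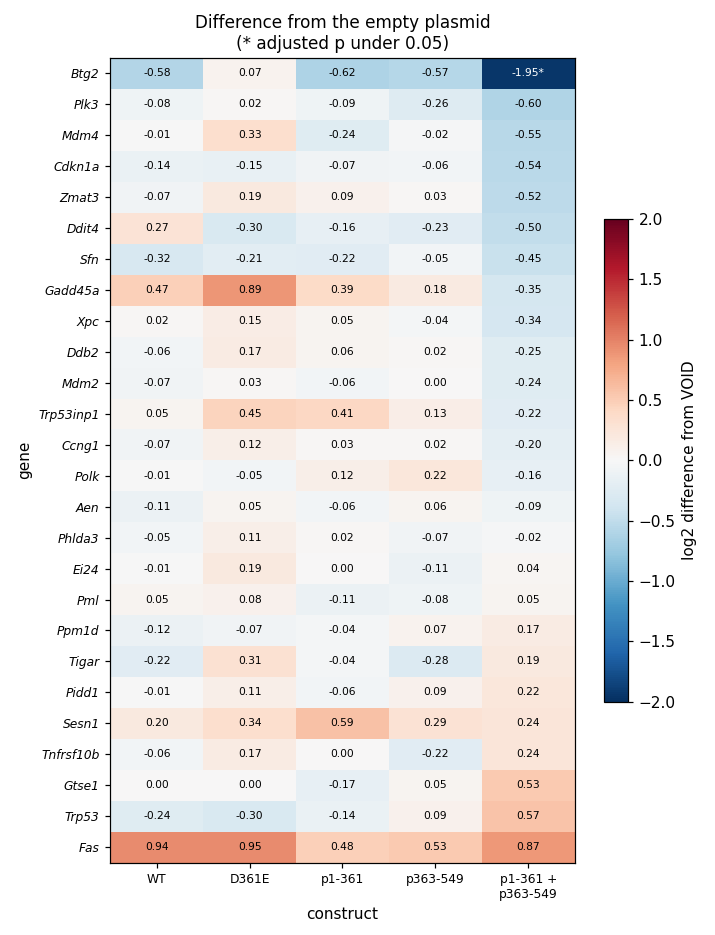
Log2 difference from VOID of the 26 tested p53 list genes (rows) for each construct (columns), with the value printed in each cell and an asterisk where limma's adjusted p was under 0.05. Rows run in order of the difference with both fragments, from Btg2 at -1.95, the one called value, to Fas at 0.87.

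The 3 arrays that resembled other groups moved these results. Without them, 6 of the 26 members (all lower) were called with both fragments against VOID, beside 9.73% of all genes, and 4 of 26 (all lower) against WT, beside 5.7%. In the other 7 comparisons the number of members called stayed at 0. Btg2 was then -2.41 ± 0.24 from VOID (adjusted p = 1.12e-06) and -1.83 ± 0.24 from WT (adjusted p = 5.52e-05). Zmat3 was -0.67 ± 0.14 from VOID (adjusted p = 0.00328) and Plk3 -0.76 ± 0.17 (adjusted p = 0.00542). Both fell against WT as well (-0.60 and -0.68). The repair genes Xpc (-0.49 ± 0.14, adjusted p = 0.031) and Ddb2 (-0.42 ± 0.13, adjusted p = 0.0389) passed against VOID, and Xpc also against WT (-0.50). Cdkn1a fell by 0.76 ± 0.21 against VOID (adjusted p = 0.0295), while Mdm2, Ccng1, Phlda3 and Aen did not pass. The median of the 26 members was -0.27, beside -0.01 for all genes. Since these arrays were chosen by value, the calls without them are a description of the remaining 21 arrays.

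**Figure D3:**
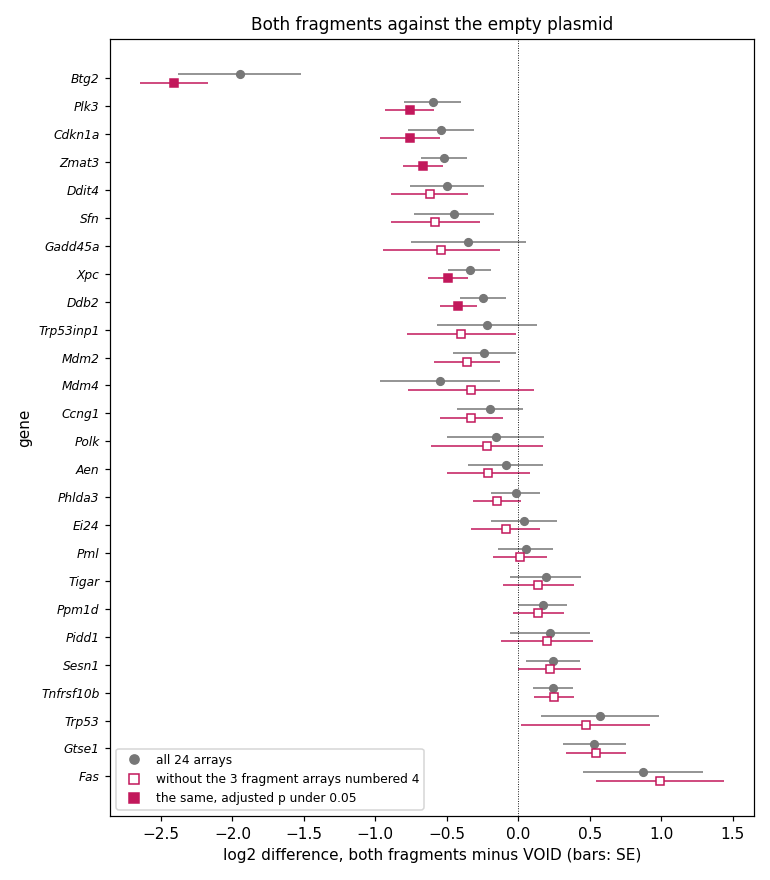
Log2 difference between both fragments and VOID for the 26 tested p53 list genes, with SE bars, over all 24 arrays (grey circles) and without replicate 4 of the 3 fragment groups (squares, filled where the adjusted p was under 0.05). The 6 filled squares, Btg2, Plk3, Cdkn1a, Zmat3, Xpc and Ddb2, all lie below 0.

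Genes around p53 that are not on the list were counted as 3 further lists. Of 30 regulators of p53, 29 were tested, and 3 were called with both fragments against VOID (2 lower, 1 higher, or 10.3% beside 4.46% of all genes) and none in the other 8 comparisons. Cdkn2a, the locus of p19Arf, which blocks Mdm2, and of the kinase inhibitor p16, had the largest of these differences. It was at 0.67, 0.55, 1.08 and 0.92 in VOID, at -0.98, -0.82, -1.12 and -1.03 in WT, and at -0.48, -0.40, -0.62 and -1.36 in D361E. It was at -0.85, -0.84, -1.05 and -0.37 in p1-361, at 0.50, -0.40, -0.18 and -2.71 in p363-549, and at -2.78, -3.12, -2.25 and -1.81 with both fragments. The VOID arrays were the 4 highest of the 24, and the both-fragments arrays were below all others but the p363-549 array that resembled them. With both fragments against VOID, Cdkn2a fell by 3.29 ± 0.44 (adjusted p = 0.000141). In WT, D361E, p1-361 and p363-549 it was at -1.79, -1.52, -1.59 and -1.50 from VOID, with adjusted p of 0.0817, 0.172, 0.125 and 0.197. Without the 3 arrays Cdkn2a fell in WT, D361E, p1-361 and both fragments against VOID, and in both fragments against WT (-1.73 ± 0.25, adjusted p = 0.000145). Which of its transcripts the probe reads was not tested. Without the 3 arrays 5 of the 29 regulators were called with both fragments against VOID, 3 higher and 2 lower, beside 9.73% of all genes.

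Hipk2, a kinase that phosphorylates p53 towards death, fell by 0.84 ± 0.16 with both fragments against VOID (adjusted p = 0.00345). It was at 0.89, 1.12, 0.81 and 0.91 in VOID and at -0.11, -0.32, 0.30 and 0.49 with both fragments, without overlap. In WT, D361E, p1-361 and p363-549 Hipk2 was at -0.48, -0.30, -0.31 and -0.38 from VOID, none called. With both fragments against WT it was at -0.37 (adjusted p = 0.352). Without the 3 arrays Hipk2 was at -0.98 ± 0.14 from VOID (adjusted p = 9.73e-05) and at -0.50 ± 0.14 from WT (adjusted p = 0.0415). Kat5, the acetyltransferase Tip60, rose by 0.49 ± 0.12 (adjusted p = 0.0173, lost in 7 of 36 alternatives), from 2.49, 2.24, 2.61 and 2.49 to 3.08, 2.92, 2.93 and 2.85. In WT, D361E, p1-361 and p363-549 Kat5 was at 0.27, 0.30, 0.35 and 0.40 from VOID, none called. With both fragments against WT it was at 0.22 (adjusted p = 0.441). Without the 3 arrays Kat5 was at 0.52 ± 0.12 from VOID (adjusted p = 0.0104).

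Of 45 other p53 targets, which include the Bcl2 family members Bax, Bbc3 and Pmaip1, 35 were tested. With both fragments against VOID 2 were called, both lower: Lif, a cytokine, at -2.11 ± 0.47 (adjusted p = 0.0104) and Csf1, the macrophage growth factor, at -1.53 ± 0.39 (adjusted p = 0.0273), that is 5.71% of the list beside 4.46% of all genes. Lif lost the call in 1 of 36 alternatives and Csf1 in 10, and with normexp background correction they were at -0.98 and -0.78. Without the 3 arrays 5 of the 35 were called, all lower, beside 9.73% of all genes. Csf1 was also called against WT (-1.67 ± 0.39, adjusted p = 0.0425, likewise lost in 23 of 36). Crip2, a LIM domain gene, fell in D361E (-1.42 ± 0.33, adjusted p = 0.045, lost in 23 of 36 alternatives), p1-361 (-1.75 ± 0.33, adjusted p = 0.00831) and p363-549 (-1.56 ± 0.33, adjusted p = 0.025, lost in 10 of 36) against the shared VOID arrays. With both fragments Crip2 was at -1.77, -1.14, -1.65 and -3.40, beside -1.16, -1.90, -1.49 and -2.07 in VOID, and was not called (-0.33, adjusted p = 0.603, or 0.14 without the 3 arrays). In WT Crip2 was at -1.38 ± 0.33 from VOID, a value near that of D361E that just missed the threshold (adjusted p = 0.0676). Without the 3 arrays it was called lower in WT, D361E, p1-361 and p363-549 against VOID (WT adjusted p = 0.00061) and higher with both fragments against WT (1.52 ± 0.22, adjusted p = 0.000176).

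Genes of G2 and mitosis, which p53 lowers through p21 and the DREAM complex, were the third list, and 15 of its 16 genes were tested. With both fragments against VOID 2 were called, both higher (13.3% beside 4.46%), all 15 lay above 0, and the median difference was 0.48 beside -0.01 for all genes. Foxm1, the transcription factor of this programme, rose by 0.64 ± 0.14 (adjusted p = 0.012), from 0.52, 0.32, 0.39 and 0.43 to 1.11, 1.11, 1.18 and 0.83. Cdc25c, the phosphatase that starts mitosis, rose by 0.57 ± 0.15 (adjusted p = 0.0293, lost in 8 of 36 alternatives). In WT, D361E, p1-361 and p363-549 Cdc25c was at 0.38, 0.19, 0.20 and 0.49 from VOID, none called. With both fragments against WT it was at 0.19 (adjusted p = 0.582), so its rise was not particular to the pair. In the other 4 comparisons against VOID none was called and the median lay between -0.05 and 0.11. Without the 3 arrays 2 of the 15 were called with both fragments against VOID, both higher, beside 9.73% of all genes. Foxm1 was then at 0.72 ± 0.14 (adjusted p = 0.0025) and Cdc25c at 0.60 ± 0.15 (adjusted p = 0.0132). Against WT 1 of the 15 was called, Foxm1 at 0.66 ± 0.14 (adjusted p = 0.00794), beside 5.7% of all genes.

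**Figure D4:**
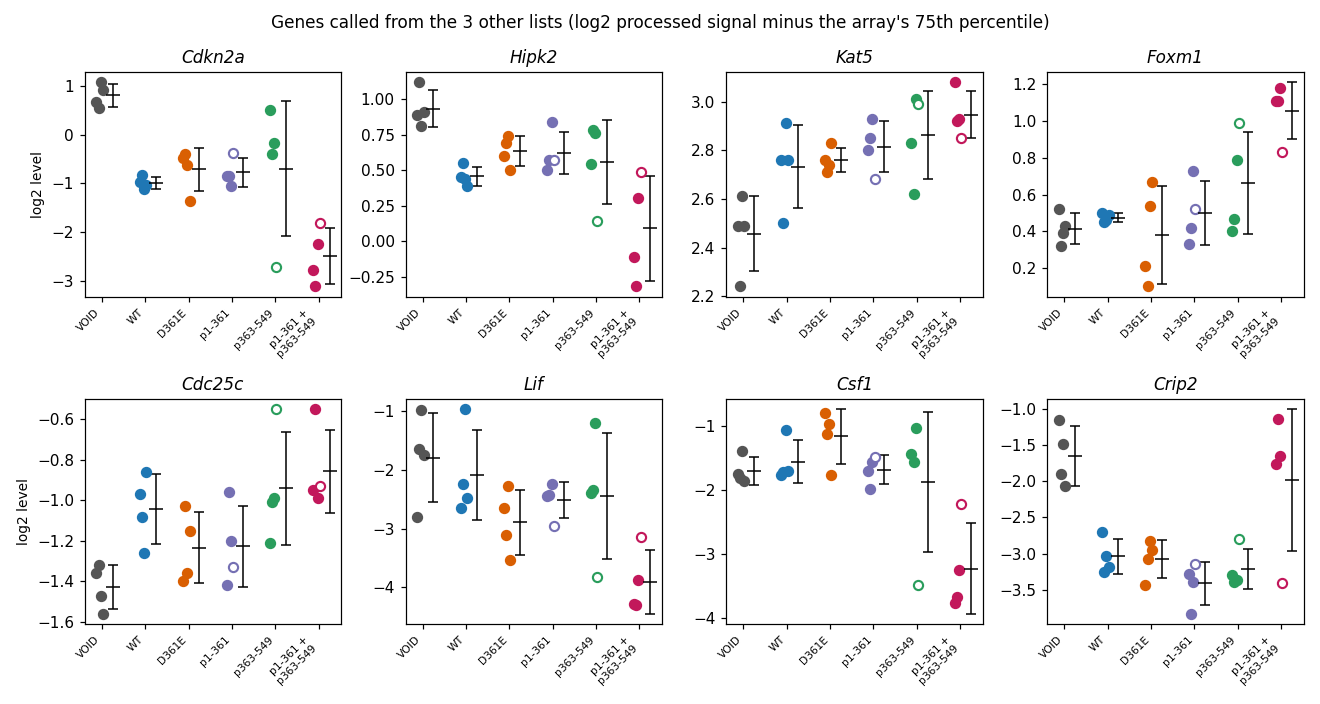
Log2 level (processed signal minus the array's 75th percentile) on every array of the 8 genes called from the lists of p53 regulators, other p53 targets and G2 and mitosis genes. Each point is 1 array, open points are replicate 4 of the 3 fragment groups, and bars are the mean ± SD of 4 arrays. Cdkn2a lies between 0.55 and 1.08 in VOID and between -3.12 and -1.81 with both fragments.

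Several members deviated together by the order of the samples. The samples are numbered so that each run of 6 consecutive numbers holds 1 array of each group. The replicate numbers used here were given in this order, so they match these 4 sets by construction. The labels do not call the sets batches. This comparison was chosen after the values were seen. In a limma fit with group and set, the set term was called for 17 of the 26 members (65.4%), beside 58.5% of all genes, and without the 3 arrays for 21 of 26 (80.8%) beside 62.3%. In the third set (samples 13 to 18) Fas was 0.78 above its group means, Polk 0.68, Gadd45a 0.65 and Trp53inp1 0.60. Mdm4 was at 0.38, Sesn1 at 0.37, Mdm2 at 0.30 and Cdkn1a at 0.29. In the same set Trp53 was at -0.82, Pidd1 at -0.50, Aen at -0.46 and Tigar at -0.45. So Trp53 mRNA deviated against some of the p53 targets in that set and with others. Over the 26 members the median deviation there was 0 and 13 lay above 0. For all genes tested the median was 0.06, with 8528 of 14991 above 0. For 8 members (30.8%) the highest array of a group lay in the third set in at least 5 of the 6 groups, beside 17.7% of all genes.

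With the sets as a block, 6 of 26 members were called with both fragments against VOID, beside 16.1% of all genes: Btg2, Zmat3 and Plk3 lower, and Trp53 (0.57 ± 0.19, adjusted p = 0.0447), Fas (0.87 ± 0.24, adjusted p = 0.0219) and Gtse1 (0.53 ± 0.16, adjusted p = 0.0318) higher. Against WT in the same fit 3 members were called, beside 7.36% of all genes: Trp53 (0.81 ± 0.19, adjusted p = 0.0231) and Tigar were higher and Zmat3 lower. 1 member was called in each of 3 more comparisons: Fas in D361E against VOID (0.95 ± 0.24, adjusted p = 0.0497, beside 1.79% of all genes), Sesn1 in p1-361 against VOID (0.59 ± 0.10, adjusted p = 0.00205, beside 3%) and Tigar in D361E against WT (0.53 ± 0.10, adjusted p = 0.036, beside 0.227%). The sizes of these differences are those of the fit without the block, and the SE is smaller for each of them but Btg2, where it is 0.43 in both.

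**Figure D5:**
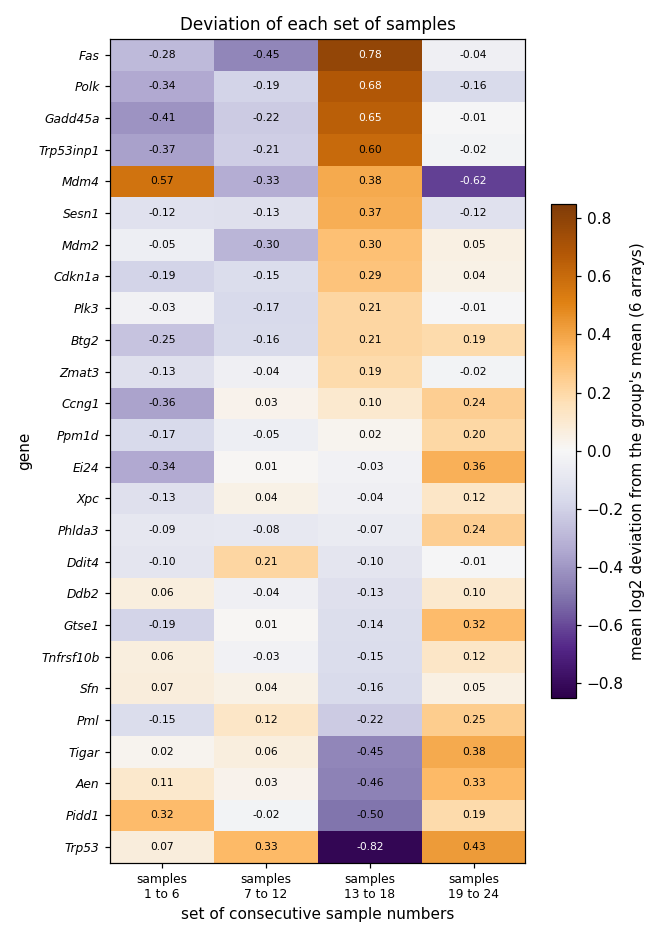
Mean log2 deviation from the group's mean in each set of 6 consecutive samples (columns, 6 arrays each, 1 per group) for the 26 tested p53 list genes (rows), with the value printed in each cell. In samples 13 to 18 Fas stands at 0.78 and Trp53 at -0.82.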

How the data were processed

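Total RNA of 24 transfected samples was hybridised to one-colour (Cy3) Agilent mouse arrays. Per the labels and the file headers, the authors deposited the output of Agilent Feature Extraction 10.7.3.1, with 1 intensity per spot (the processed signal, background-subtracted) on a linear scale. The deposited series table held the same numbers as the processed signal in the scanner files (largest difference 0). The array design names mm9. Arrays give no read depth, and 4 arrays a group limit the precision.

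Control spots and outlier spots (185 to 312 an array) were left out, repeated spots averaged, and log2 values set against each array's 75th percentile. A probe entered the fit if the scanner marked it well above background in each of the 4 arrays of some group (19524 probes, 14991 genes). Of 39429 probes, 27597 took their name from a RefSeq accession. The brightest probe stood for a gene. limma 3.58.1 (R 4.3.3) was fitted with 1 mean per group over 24 arrays (18 residual degrees of freedom), 9 contrasts and an F test, 2-sided, with Benjamini-Hochberg adjustment over all genes. The fit was tested on simulated data. Values on every array are given for Trp53, Cdkn1a, Mdm2, each called member and the 6 members with the smallest F test p, and other members are named where highest or lowest in a comparison, where called under an alternative, or (Ddit4, Gadd45a and Tigar) after their values were seen. From the other lists, called genes are named, up to 4 in each list and comparison. The alternatives were quantile normalization, a normexp correction of the background (offset 50), other filters and percentiles, the mean of probes, the deposited table, slide or set as a block, only the arrays compared, each array left out, and the 3 arrays left out. The members and all gene lists were chosen with earlier results of these data known.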

Additional observations from a re-analysis of the deposited data

Results flagged for a closer look

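In 54 groups of 4 arrays (9 named genes in 6 groups), 2 arrays stood far from the other 3 of their group, where chance flags about 1 in 20 groups. Trp53 in both-fragments replicate 3 was at -1.46, with the other 3 arrays between -0.14 and 0.00. Plk3 in p1-361 replicate 2 was at -0.04, with the others between 0.30 and 0.34. The first of these belongs to the third set of samples, in which Trp53 was the lowest of its group in all 6 groups.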

How the results depend on the processing

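Of the 30 gene differences recomputed under every alternative, 0 changed sign. These were the member differences with an unadjusted p under 0.05 and the called differences of the other lists. They were picked for lying away from 0, so a change of sign was unlikely from the start. Without the 3 fragment arrays some uncalled values outside these 30 changed sign: Cdkn1a in p363-549 against VOID (-0.06 to 0.06), Ddb2 in p1-361 against VOID (0.06 to -0.06) and Crip2 with both fragments against VOID (-0.33 to 0.14). The number of members called with both fragments against VOID (1) became 2 with quantile normalization (Zmat3 added), 6 with the sets of samples as a block, 6 without the 3 fragment arrays and 0 with only the arrays compared. Against WT with both fragments (0) it became 3 with the sets as a block and 4 without the 3 arrays. The F test (0) gave 1 with quantile normalization, 5 with the sets as a block and 4 without the 3 arrays. With the sets as a block, D361E against VOID, p1-361 against VOID and D361E against WT (each 0) gave 1. The cause of these shifts was not tested. Leaving out 1 array at a time gave 0 to 5 members with both fragments against VOID, 0 to 2 against WT and 0 to 2 in the F test. For both fragments against VOID the count was 0 without both-fragments replicate 2, 2 without p363-549 replicate 3, 3 without p363-549 replicate 4 and 5 without both-fragments replicate 4. Against WT it was 1 without p363-549 replicate 4 and 2 without both-fragments replicate 4, and by the F test 1 without p363-549 replicate 3 and 2 without each of the other 2. Of 36 alternatives, the Btg2 call against VOID held in 34 and that of Cdkn2a in 36, while Crip2 in D361E and Csf1 against WT each held in 13. Not all alternatives could move a call. The deposited table repeats the same values. Leaving out an array of a group not compared left the Btg2 difference at -1.95 and changed only its spread and the genes tested. The labels give no replicate numbers that pair arrays, and the block by sets of consecutive sample numbers, which compares arrays within sets, changed the calls as given above. Signal over background limits the 6 untested members, for which no difference can be given.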
